A study of Homo sapiens with 6 samples.

Results

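The plasminogen activation system is described here by its activating proteases PLAU (urokinase) and PLAT (tissue plasminogen activator), the urokinase receptor PLAUR, and the serpin inhibitors SERPINE2 and SERPINB2. Of these 5 genes, 4 had probe sets that the array annotation assigned to them alone: 2 for PLAU, 3 for PLAUR, 1 for PLAT and 1 for SERPINE2, or 7 of the 22283 probe sets on the array, which named 11963 genes in all. SERPINB2 was not analysed here. The cells were of the MDA-MB-231 line, which is established, human and derived from breast cancer, and has a mesenchymal-like phenotype. They were electroporated with an siRNA against parathyroid hormone-related protein (siPTHrP) or with an siRNA against luciferase (siLuc), which stands in as the control, and total RNA was taken after 3 days. In 3 independent experiments each siRNA gave 1 RNA and 1 Affymetrix human genome U133 array (type A), so that each group held 3 arrays, and the siPTHrP and siLuc arrays of the same experiment were paired. All groups were therefore electroporated cells of 1 line, and no untreated cells were part of the comparison. The study set out to find transcripts that answer to PTHrP. The PTHrP transcript was not analysed here, and the knockdown is therefore unchecked.

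Urokinase is secreted as an inactive precursor and binds its receptor PLAUR, which is held at the cell surface by a lipid anchor. There it converts plasminogen to plasmin, a broad serine protease that degrades fibrin and matrix proteins, and plasmin in turn activates more urokinase. Tissue plasminogen activator makes the same conversion mainly on fibrin and at cell-surface binding sites. Serpins end the activity by trapping the protease in a covalent complex that clearance receptors take up. The system is known for its part in invasion, and MDA-MB-231 is known for making urokinase and its receptor.

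The start-site sequences of the protease and its receptor are shown because PLAU held the member probe set with the smallest p-value and PLAUR encodes its binding partner. Both are RefSeq windows of build GRCh38.p14 covering the 250 bases before a start site, written 5′ to 3′ on the gene's own strand. The PLAU window is chr10:73910882-73911131 on the plus strand, and the PLAUR window is chr19:43670170-43670419 on the minus strand. Capitals mark matches, on either strand, to 4 short motifs: the AP-1 motif TGANTCA, the cAMP response element TGACGTCA, the GC box GGGCGG and the PEA3 (ETS family) motif AGGAAG. No matches overlapped each other.
PLAU: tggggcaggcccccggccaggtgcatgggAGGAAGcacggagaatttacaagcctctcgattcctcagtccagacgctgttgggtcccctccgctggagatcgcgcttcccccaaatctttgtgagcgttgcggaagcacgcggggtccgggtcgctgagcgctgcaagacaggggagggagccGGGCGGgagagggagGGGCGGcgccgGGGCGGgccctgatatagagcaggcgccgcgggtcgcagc
PLAUR: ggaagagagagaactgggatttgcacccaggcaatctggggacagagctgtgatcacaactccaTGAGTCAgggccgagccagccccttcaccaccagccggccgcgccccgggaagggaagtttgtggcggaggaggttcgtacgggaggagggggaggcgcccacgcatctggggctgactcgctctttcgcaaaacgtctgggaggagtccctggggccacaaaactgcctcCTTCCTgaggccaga
The PLAU window held 3 GC boxes and 1 PEA3 motif. The GC boxes began 66, 51 and 40 bases before the start site and the PEA3 motif 221 bases before it. The PLAUR window held 1 AP-1 motif, which began 186 bases before the start site, and 1 PEA3 motif on the opposite strand, 15 bases before it. No full cAMP response element was in either window. Of 35116 RefSeq windows of the same length, 42.6% held a GC box, 28.7% a PEA3 motif, 6.57% an AP-1 motif and 1.65% a cAMP response element. A second PLAU window listed for another start site held none of the 4 motifs. The matches describe letters in these windows and say nothing about binding.

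Of the 6 arrays, siLuc of experiment 1 was the least like the rest. Across probe sets it correlated with the others at Spearman rho 0.716 to 0.725, while the remaining 5 correlated with each other at 0.882 to 0.960. Results of the members, and of the listed genes at an unadjusted p under 0.05, are also given without experiment 1. The trimmed mean signal was between 1500.4 and 1500.6 on all arrays, but the median was 887 on that array and 559 to 659 on the other 5, and 90.1% of its values carried decimals where the others held whole numbers. With 3 arrays a group, precision is limited throughout by their number. Among the markers used to check the line, all 7 genes listed as high in MDA-MB-231 passed the filter on dim probe sets, with a summed signal of 262682 to 305303 on the siLuc arrays and 221515 to 313564 on the siPTHrP arrays. Of 19 markers of luminal breast, leukocyte, fibroblast and endothelial cells, 10 passed it: ESR1, GATA3, FOXA1, TFF1, ERBB2 and KRT19 of the 8 luminal markers, the T cell marker CD3E, COL1A1 and DCN of the fibroblast markers and the endothelial PECAM1. The summed signal of all 19 was 20122 on the siLuc array of experiment 1 and 8370 to 11863 on the other 5. CDH1 and PGR of the luminal markers and PTPRC of the leukocyte markers were among the 9 below the filter. The part of these markers in the results was not tested.

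Urokinase signal was higher with siPTHrP in every experiment on 1 of its 2 probe sets, with a difference of 1.55-fold. The intervals of the other urokinase probe set, the receptor, tissue plasminogen activator and SERPINE2 all included no difference. No member passed the threshold of the test across the array, a Benjamini-Hochberg adjusted p under 0.05 in limma with the experiment as a block. All 7 member probe sets passed the filter on dim signals, and 5 of them had a log2 fold change above 0, where 52.5% of the 13329 probe sets tested did, and 2 below 0, where 47.5% did. The median log2 fold change of the 7 was 0.25, beside 0.030 over all probe sets tested, which were not matched for brightness. Over the probe sets kept by a stricter filter, at the 60th percentile, the median was 0.090. At an unadjusted p under 0.05 there was 1 of 7, higher with siPTHrP, where 6.77% of all probe sets were higher at that level and 5.36% lower. At the adjusted threshold 0 of 7 were called and 0% of all probe sets (0 of 13329, and 1618 at an unadjusted p under 0.05 in limma). A share of 1 in 7 does not stand apart from this background.

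**Figure D1:**
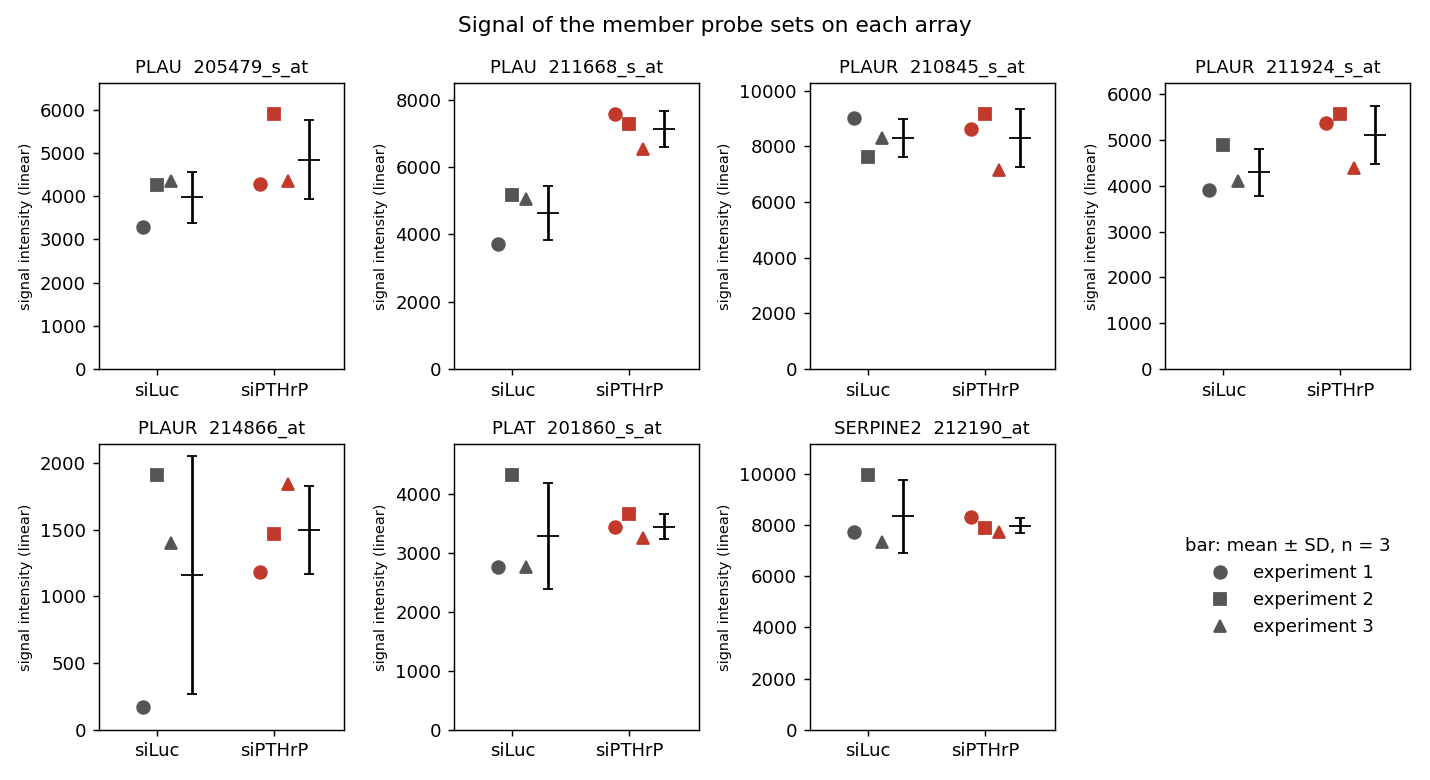
Signal intensity (linear scale, from 0) of each member probe set on the 6 arrays, with siLuc in grey, siPTHrP in red, 1 marker shape per experiment, and the bar giving the mean ± SD of 3 arrays. On PLAU 211668_s_at the siPTHrP arrays (6523 to 7572) lie above all siLuc arrays (3697 to 5159), and on the other 6 probe sets the groups overlap.

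PLAU encodes urokinase, the main plasminogen activator of invading tumour cells. On probe set 211668_s_at its signal intensity was 3697, 5159 and 5033 with siLuc and 7572, 7287 and 6523 with siPTHrP in experiments 1, 2 and 3. The groups did not overlap: the lowest siPTHrP array was above the highest siLuc array, as it was for 8.94% of all probe sets tested. The mean was 4630 ± 810 with siLuc and 7127 ± 542 with siPTHrP (SD, n = 3). The log2 fold change was 0.63 (SE 0.20), or 1.55-fold with a 95% interval of 1.14 to 2.11. Its limma p was 0.0104 unadjusted and 0.347 after adjustment over all probe sets. By experiment the difference was 2.04-fold, 1.41-fold and 1.30-fold in experiments 1, 2 and 3, the largest being that of the experiment whose siLuc array was unlike the rest. Without experiment 1 the log2 fold change was 0.44 (limma adjusted p = 0.319), and without that siLuc array and with no replicate block it was 0.48 (adjusted p = 0.361). Over 14 other settings it stayed between 0.44 and 0.76, with an adjusted p from 0.127 to 0.512.

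The other PLAU probe set, 205479_s_at, gave a smaller difference. Its signal was 3294, 4253 and 4359 with siLuc and 4286, 5900 and 4356 with siPTHrP. The siLuc array of experiment 1 was the lowest here as well, and the arrays of experiment 3 were equal to within 3 units. Its log2 fold change was 0.28 (SE 0.20), or 1.22-fold with an interval of 0.893 to 1.66, and the limma adjusted p was 0.546. It was 0.23 on the log2 scale without experiment 1. Differences by experiment were 1.30-fold, 1.39-fold and 0.999-fold. The log2 difference on 211668_s_at exceeded that on 205479_s_at by 0.65 in experiment 1, by 0.026 in experiment 2 and by 0.37 in experiment 3, so the probe sets for the same gene were alike in experiment 2 only. Across the 6 arrays their log2 signals had a Pearson correlation of 0.766, a description over arrays that share the same scaling.

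PLAUR, the urokinase receptor, was measured by 3 probe sets that did not follow each other. On 210845_s_at the signal was 9012, 7624 and 8292 with siLuc and 8637, 9167 and 7153 with siPTHrP. The siPTHrP array was the lower in experiments 1 and 3 and the higher in experiment 2. The fold was 0.998 with an interval of 0.759 to 1.31, or -0.0028 on the log2 scale with an SE of 0.17, and the limma adjusted p was 0.996. The sign of so small a value turned under 5 of 14 other settings, within a range of -0.16 to 0.10 on the log2 scale.

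On PLAUR probe set 211924_s_at the signal was 3907, 4881 and 4093 with siLuc and 5359, 5565 and 4376 with siPTHrP. The siPTHrP array was the higher in all 3 experiments, as it was for 19.1% of all probe sets tested, but the groups overlapped because the siPTHrP array of experiment 3 was below the siLuc array of experiment 2. The difference was 1.37-fold, 1.14-fold and 1.07-fold by experiment. In the fit this gave a log2 fold change of 0.25 (SE 0.19), or 1.19-fold with an interval of 0.883 to 1.59, and the adjusted p was 0.581. Without experiment 1 it was 0.14.

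The difference on the remaining PLAUR probe set, 214866_at, rests on 1 array. Its signal was 172, 1914 and 1398 with siLuc and 1187, 1467 and 1844 with siPTHrP. The siLuc array of experiment 1 was below the filter level of 376, and the other 5 arrays lay between 1187 and 1914 with both groups mixed. The log2 difference was 2.68 in experiment 1, -0.38 in experiment 2 and 0.40 in experiment 3. The fitted log2 fold change was 0.90 (SE 0.55), with a limma adjusted p of 0.503. It became 0.0077 without experiment 1, and -0.15 without that siLuc array and with no replicate block. Between the PLAUR probe sets the Pearson correlation over the 6 arrays was 0.201 for 210845_s_at and 211924_s_at, -0.555 for 210845_s_at and 214866_at, and 0.529 for 211924_s_at and 214866_at.

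PLAT encodes tissue plasminogen activator, the activator that works mainly on fibrin. On 201860_s_at the signal was 2765, 4330 and 2769 with siLuc and 3443, 3660 and 3248 with siPTHrP. All siPTHrP arrays lay inside the siLuc range, whose upper end was the siLuc array of experiment 2. The fitted log2 fold change was 0.10 (SE 0.22), or 1.07-fold with an interval of 0.763 to 1.51, and the adjusted p was 0.860. By experiment the signal was 1.24-fold, 0.846-fold and 1.17-fold of siLuc. The log2 fold change became -0.0063 without experiment 1 and 0.27 without experiment 2.

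SERPINE2 (protease nexin-1) is a serpin that inhibits urokinase, tissue plasminogen activator and thrombin. On 212190_at the signal was 7742, 9970 and 7324 with siLuc and 8319, 7885 and 7749 with siPTHrP. The siLuc array of experiment 2 was again the highest, and the siPTHrP arrays lay inside the siLuc range. The log2 fold change was -0.051 (SE 0.18), or 0.965-fold with an interval of 0.733 to 1.27, and the adjusted p was 0.918. Experiments 1 and 3 gave 1.07-fold and 1.06-fold, and experiment 2 gave 0.791-fold. Without experiment 2 the sign turned, to a log2 fold change of 0.092, and without experiment 1 it was -0.13. The siPTHrP arrays were close together for these last genes, with a coefficient of variation of 5.97% for PLAT and 3.73% for SERPINE2, beside 27.5% and 17.0% on the siLuc arrays.

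**Figure D2:**
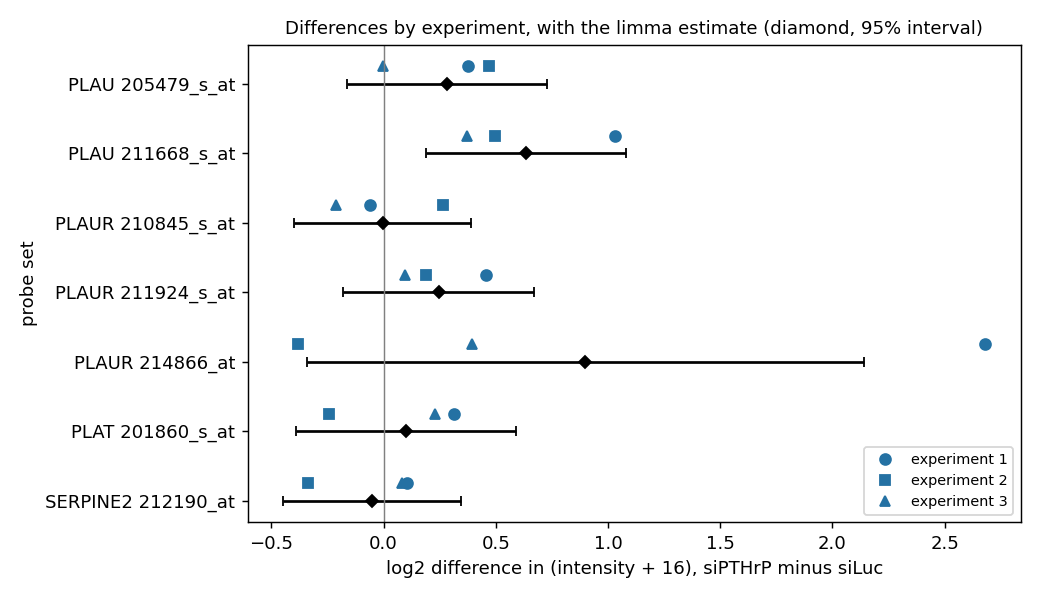
Log2 difference in signal between the siPTHrP and siLuc arrays of each experiment (blue, 1 marker shape per experiment) and the limma estimate with its 95% interval (black diamond and bar), for the 7 member probe sets. The interval of PLAU 211668_s_at runs from 0.19 to 1.08 and those of the other 6 probe sets cross 0.

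Among themselves the members differed in how evenly the experiments agreed. The SD of the log2 difference over the 3 experiments was 0.19 for PLAUR 211924_s_at, 0.24 for PLAUR 210845_s_at, 0.25 for SERPINE2 and for PLAU 205479_s_at, 0.30 for PLAT, 0.35 for PLAU 211668_s_at and 1.59 for PLAUR 214866_at. In experiment 2 both PLAU probe sets were higher with siPTHrP, while PLAT and SERPINE2 were lower, and in experiment 3 PLAU 211668_s_at was 1.30-fold while PLAT was 1.17-fold and SERPINE2 1.06-fold. These arrays measure whole cultures, so a change in RNA per cell and a change in the share of cells with the transcript cannot be told apart.

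**Figure D3:**
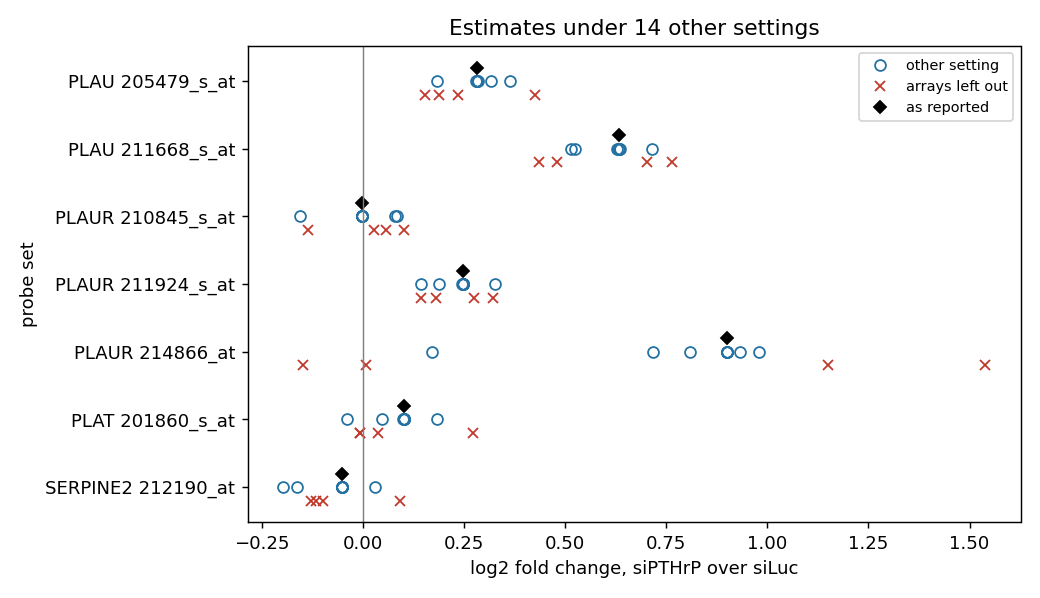
Log2 fold change of each member probe set as reported (black diamond), under the 10 settings that use all arrays (blue circles) and with arrays left out (red crosses). Both PLAU probe sets and PLAUR 211924_s_at stay above 0 throughout, while PLAUR 214866_at spreads from -0.15 to 1.54.

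The other genes around the system came from 4 lists: plasminogen, plasmin inhibitors, contact factors and fibrinogen; surface binding and clearance; other inhibitors, activators and substrates; and transcription factors known to act on the PLAU or PLAUR promoter. Of 64 listed genes 59 were named on the array and 41 passed the filter on dim signals, each represented by its brightest probe set. No gene passed the adjusted threshold. At an unadjusted p under 0.05 there were 5 higher and 2 lower of 41, beside 6.77% higher and 5.36% lower over all probe sets. The log2 fold change was above 0 in 24 and below 0 in 17, where 52.5% of all probe sets tested were above 0. The median was 0.082, beside 0.030 over all probe sets tested, which were not matched for brightness.

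Surface binding and clearance genes held 4 of those 7, out of 16 tested. Of these 3 were higher and 1 lower, beside 6.77% higher and 5.36% lower over all probe sets. The count was not tested against those shares. The median log2 fold change of the 16 was 0.12. ITGAV, the integrin alpha V chain that pairs in vitronectin receptors, had a signal of 1288, 1265 and 697 with siLuc and 3077, 2809 and 1105 with siPTHrP. The siPTHrP array was the higher in each experiment, but that of experiment 3 lay inside the siLuc range (2.02-fold, interval 1.26 to 3.22, limma adjusted p = 0.332). IGF2R, the mannose 6-phosphate receptor that also binds PLAUR and plasminogen, had 1812, 1733 and 1738 with siLuc and 2618, 3626 and 2340 with siPTHrP. Its groups did not overlap, as for 8.94% of all probe sets with siPTHrP higher. It stood at 1.59-fold (interval 1.07 to 2.36, adjusted p = 0.392), though its other probe set gave 1.15-fold. PLGRKT, a transmembrane plasminogen receptor, had 1029, 1688 and 897 with siLuc and 2153, 2349 and 1443 with siPTHrP (1.66-fold, interval 1.05 to 2.64, adjusted p = 0.398). The siPTHrP array of experiment 3 was below the siLuc array of experiment 2. Without experiment 1 the log2 fold changes of ITGAV, IGF2R and PLGRKT were 0.90, 0.74 and 0.57.

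MRC2 was the lower gene of this list. It encodes Endo180, a collagen-uptake receptor also known as the PLAUR-associated protein. Its signal was 2221, 1503 and 2287 with siLuc and 967, 1395 and 1181 with siPTHrP. Every siPTHrP array was below every siLuc array, as for 9.69% of all probe sets, although the gap in experiment 2 was small. The fold was 0.596 with an interval of 0.360 to 0.987 (adjusted p = 0.408), and its other probe set gave 0.509-fold. Without experiment 1 the log2 fold change was -0.53. The main surface binders of plasminogen showed smaller differences: ANXA2 (annexin A2) stood at 0.965-fold, its partner S100A10 at 1.15-fold and the enolase ENO1 at 0.889-fold, with adjusted p-values of 0.930, 0.595 and 0.738. LRP1, the endocytic receptor for complexes of activator and serpin, stood at 0.618-fold (interval 0.254 to 1.50).

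**Figure D4:**
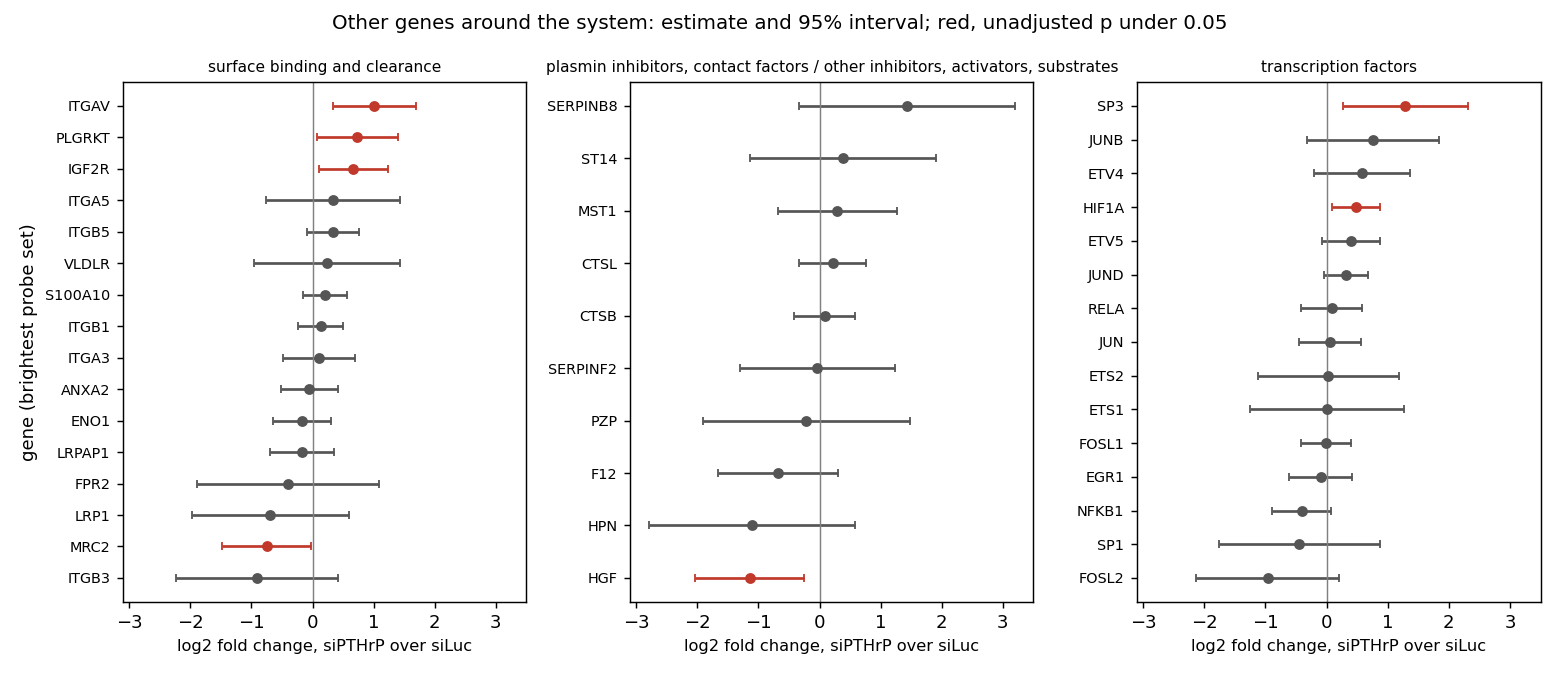
Log2 fold change (siPTHrP over siLuc) with its 95% interval for the 41 listed genes that passed the filter, in 3 panels by list, with red for an unadjusted p under 0.05. Of the 7 red genes ITGAV, PLGRKT, IGF2R, SP3 and HIF1A are above 0 and MRC2 and HGF below.

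Plasminogen and its inhibitors gave little signal. Of 11 genes in that list 2 passed the filter, and 9 were below it, among them PLG itself and the fibrinogen chains FGA, FGB and FGG, which are made mainly by liver. PLG had a signal of 588 on the siLuc array of experiment 1 and 24 to 123 on the other 5, so no fold is read from it. F12, the contact factor XII, had 1647, 766 and 860 with siLuc and 799, 774 and 415 with siPTHrP (0.625-fold, interval 0.315 to 1.24, adjusted p = 0.519). Its highest value was on the siLuc array of experiment 1. Of the 2 F12 probe sets only this 1 was lower with siPTHrP. SERPINF2, alpha-2-antiplasmin, stood at 0.977-fold with an interval of 0.405 to 2.35 (adjusted p = 0.984).

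Among other inhibitors, activators and substrates 8 of 16 listed genes were tested, with a median log2 fold change of 0.15. Of these 5 were above and 3 below 0, where 52.5% of all probe sets tested were above 0. HGF, the hepatocyte growth factor that is activated by serine proteases, was the gene at an unadjusted p under 0.05. Its signal on 209961_s_at was 2215, 1183 and 1077 with siLuc and 656, 665 and 580 with siPTHrP. The groups did not overlap, as for 9.69% of all probe sets with siPTHrP lower. The siLuc array of experiment 1 was the highest (0.454-fold, interval 0.244 to 0.841, adjusted p = 0.366). Without experiment 1 the log2 fold change was -0.85 (adjusted p = 0.332). The other 4 HGF probe sets, all below the filter, had the same sign in the fit. Of these, 210997_at and 210998_s_at were higher with siPTHrP in experiment 3. With no filter the median over all probe sets was -0.163 on the log2 scale, so the shared sign is not read as agreement. SERPINB8 rested on 1 array: its signal was 87 on the siLuc array of experiment 1 and 1111 to 2216 on the other 5, and its log2 fold change of 1.43 became -0.068 without experiment 1. HPN, the transmembrane protease hepsin, was highest on that same array, at 1460 beside 201 to 466 on the other 5 (0.466-fold, interval 0.144 to 1.50, adjusted p = 0.534). CTSB, cathepsin B, which can activate the urokinase precursor, stood at 1.06-fold with an interval of 0.750 to 1.49. Of its 4 probe sets 3 were higher with siPTHrP.

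Of the transcription factors 15 of 19 were tested, with a median log2 fold change of 0.061. Of these 10 were above and 5 below 0, where 52.5% of all probe sets tested were above 0. SP3, which binds GC boxes, had a signal of 415, 1682 and 1083 with siLuc and 2910, 2558 and 1539 with siPTHrP. It was higher with siPTHrP in each experiment but by very unequal amounts, with log2 differences of 2.76, 0.60 and 0.50. The fitted log2 value was 1.29 (SE 0.45) with an adjusted p of 0.369. Without experiment 1 it was 0.55 (adjusted p = 0.378). Without experiment 3 it was 1.68 with an adjusted p of 0.0296, the only listed gene under the threshold in any setting. That fit rests on experiments 1 and 2 alone and keeps the siLuc array of experiment 1, at 415. In it 215 probe sets of the whole array passed, beside 0 with all arrays, so the pass is not read as a result about SP3. HIF1A, the oxygen-regulated factor, had 7720, 9563 and 5682 with siLuc and 11478, 11068 and 8979 with siPTHrP (1.39-fold, interval 1.06 to 1.83, adjusted p = 0.377), with the siPTHrP array of experiment 3 below the siLuc array of experiment 2, and a log2 fold change of 0.43 without experiment 1. JUND, an AP-1 subunit, stood at 1.24-fold (adjusted p = 0.453) with no overlap between groups, as for 8.94% of all probe sets with siPTHrP higher. Its log2 fold change was 0.32, beside 0.22 without experiment 1 and 0.13 under quantile normalization. FOSL1, an AP-1 partner known to act on PLAU and PLAUR, stood at 0.993-fold (interval 0.747 to 1.32, adjusted p = 0.984).

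The transcripts whose pattern over the 6 arrays was most like that of each member, by Pearson correlation of log2 signal on its brightest probe set, were picked from all kept probe sets with 1 named gene and are a description only. For PLAU they were KLHDC2, TSPO and DHRS2, at 0.996, 0.991 and 0.991. For PLAUR they were CD2AP, ELF4 and TRIM68, at 0.993, 0.984 and 0.983. For PLAT they were PHLDA3, GPR21 and TUBB, at 0.996, 0.993 and 0.992, and for SERPINE2 they were SNTB2, TGM2 and NR1D2, at 0.983, 0.982 and 0.974. Over the 5 arrays other than the siLuc array of experiment 1 these 12 values lay between 0.975 and 0.999. The genes were picked on the 6 arrays that include these 5, so this range is no separate check of the match. No gene was shared between the members' sets.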

How the data were processed

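Total RNA of 3 siLuc and 3 siPTHrP samples was isolated with RNeasy columns, biotin-labelled and hybridised to Affymetrix human genome U133 type A arrays, per the labels' protocols. Per the submitters' processing notes the deposited intensity values, on a linear scale, come from MAS5. Which version was used is not stated in those notes. MAS5 subtracts mismatch signal, so dim probe sets are noisy. The deposited scaling was kept.

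Groups came from titles and descriptions. One siLuc title lacks a number and was assigned to experiment 1 because 2 and 3 were taken, and the sample titled as siLuc 3 carries number 2 in its description; the title was followed. Since the study compared siRNAs within each experiment, by its design text, experiment was a block. Deviations from group means correlated at -0.012, 0.157 and 0.157 between the paired arrays of experiments 1, 2 and 3, and at -0.206 to 0.132 in the other 6 combinations.

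With R 4.3.3 and limma 3.58.1, 68 control probe sets were left out and those with a mean log2(intensity + 16) at or above the 40th percentile (8.614, a signal of about 376) were kept, leaving 13329. The linear model had siRNA and experiment as terms, with eBayes and an intensity trend. With all arrays it had 2 residual and 7.17 prior degrees of freedom, which fits that leave out an experiment do not share. Tests are two-sided, adjusted by Benjamini-Hochberg over all 13329, and a fold change sets siPTHrP over siLuc after adding 16 to each intensity, which understates the change of dim probe sets. The script was tested on simulated data. Probe sets were named from the platform annotation: 19071 had 1 gene, 1043 several and 2169 none, and 19059 symbols were updated through RefSeq. Named genes were all member probe sets, listed genes with an unadjusted p under 0.05 (at least 3 per list where available), and the 3 best-correlated transcripts per member; the few others were named after their values were seen. The members, gene lists and markers were chosen with earlier results of these data known. Alternatives were no block, offsets of 1 and 64, quantile normalization and median centring (over kept probe sets), no filter or a stricter one (60th percentile), a robust trend or none, array weights, and leaving out each experiment or the siLuc array of experiment 1.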

Additional observations from a re-analysis of the deposited data

How the results depend on the processing

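The count of member probe sets past the threshold was 0 under all 14 alternatives. The count over all probe sets, 0 as reported, was 177 with array weights and 33 to 215 when an experiment was left out. It was 0 when only the siLuc array of experiment 1 was left out, with no replicate block. Fits that left out an experiment had other degrees of freedom than the main fit, so their higher counts are not read as a result. Of the listed genes 0 to 1 passed when an experiment was left out. With no replicate block the log2 fold change of PLAU 211668_s_at was 0.63 (limma adjusted p = 0.449), and no call changed. Median centring shifted every log2 fold change up by the same amount, and the median over all probe sets tested went from 0.030 to 0.111. That shift turned the sign of PLAUR 210845_s_at to 0.079, of SERPINE2 to 0.030 and of SERPINF2 to 0.047. Array weights turned PLAUR 210845_s_at to 0.085 and PLAT to -0.040. Without experiment 1 PLAUR 210845_s_at was 0.026, PLAT -0.0063 and SERPINB8 -0.068. Without experiment 2 SERPINE2 was 0.092, and without experiment 3 PLAUR 210845_s_at was 0.10 and SERPINF2 0.45. With no replicate block and siLuc replicate 1 left out, PLAUR 210845_s_at was 0.057, PLAUR 214866_at -0.15 and PLAT -0.0070. Over fits that left out arrays, values ran from -0.14 to 0.10 for PLAUR 210845_s_at, from -0.15 to 1.54 for PLAUR 214866_at, from -0.0070 to 0.27 for PLAT, from -0.13 to 0.092 for SERPINE2, from -0.57 to 0.45 for SERPINF2 (-0.39 at the lowest with a whole experiment left out) and from -0.068 to 2.26 for SERPINB8. The cause of the turns under settings other than median centring was not tested. All turned values had a limma adjusted p of 0.819 or more. With 3 arrays a group, differences of the size seen for PLAU have intervals as wide as 1.14-fold to 2.11-fold.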

Other observations

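Among listed genes outside the naming rule, chosen after their values were seen, ITGB5, the integrin beta 5 chain that pairs with alpha V, and NFKB1, an NF-kB subunit, had groups that did not overlap. Of the 41 listed genes tested, 3 did so with siPTHrP higher and 3 with siPTHrP lower, beside 8.94% and 9.69% of all probe sets. ITGB5 had a signal of 3965, 3530 and 3392 with siLuc and 5042, 4387 and 4354 with siPTHrP. Its log2 difference was nearly the same in each experiment, at 0.35, 0.31 and 0.36 (1.26-fold, interval 0.941 to 1.70, limma adjusted p = 0.472), and all 4 of its probe sets had the same sign. NFKB1 had 2937, 4005 and 3186 with siLuc and 2364, 2794 and 2427 with siPTHrP, with log2 differences of -0.31, -0.52 and -0.39 (0.755-fold, interval 0.540 to 1.05, adjusted p = 0.456). Neither passed the threshold.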
